A study of Zea mays with 9 samples.

Results

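GLK17, ZBP14, bZIP52 and mez3 are 4 genes of maize chromosome 1 that lie in the segment duplicated on the P1-ww714 chromosome. They were chosen by identifier, 4 of the 39656 gene identifiers with counts in the deposited table, from the named segment genes that were higher in P1-ww714 than in B73. The values that chose them are those of that comparison, which is therefore given below as a description without a test. By average expression they are numbers 9, 10, 11 and 13 of the 19 named tested genes in the segment. Named genes around the lower end of that choice were RPS21 (average log2 CPM 5.62, 2.19-fold) and mez3 (4.88, 1.90-fold). RPS21 was not chosen and did not pass the test for a difference between P1-ww714 and B73. Below mez3, and not chosen, came DVR (4.65, 2.15-fold), TPS8 (4.52, 0.18-fold, so lower in P1-ww714) and sbip2a (4.29, 1.88-fold).

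RNA was sequenced from 14-day-old seedlings grown in a chamber, in 9 libraries of 3 genotypes, 3 libraries each. B73, the inbred line of the maize reference genome, holds 0 P1-ww714 alleles, the heterozygote P1-ww714/B73 is read as holding 1, and P1-ww714 is read as holding 2, although its label does not state that it is homozygous. P1-ww714 is one of the alleles of p1, a MYB gene of red pigment synthesis. It is background knowledge of the study, not of the labels, that the allele comes with a tandem duplication that begins near p1, which gives 2, 3 and 4 copies of the segment. DNA copy number was not measured here. The sources used here do not say how far the rest of the P1-ww714 genome resembles B73, nor how many plants went into a library. P-values therefore reflect variation among these libraries, part of which may be technical. In bulk seedling RNA, more RNA per cell and more cells that express a gene cannot be told apart.

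The 4 products have different roles. mez3 (Maize enhancer of zeste 3) encodes a homologue of the catalytic subunit of Polycomb repressive complex 2, which methylates histone H3 at lysine 27 and keeps genes silent. GLK17 belongs to the GARP family of plant DNA-binding proteins, and the reference table also calls it PHR1, the name of the Arabidopsis regulator of the response to phosphate starvation. bZIP52 encodes a basic leucine zipper protein, a family of transcription factors that bind DNA as dimers. ZBP14 carries the further name HINT, the usual symbol of histidine triad nucleotide-binding proteins, which are small enzymes that hydrolyse nucleotide conjugates. That family is not one of DNA-binding transcription factors, so the word regulator fits ZBP14 less well than the other 3 genes.

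Library totals ran from 9486044 to 16189684 counts. CPM (counts per 1000000) below are scaled by TMM, a correction for differences in library composition. The labelled tissue was matched by leaf genes: pdk1, pep1 and me3 of C4 photosynthesis and ssu1 of Rubisco all had counts, and the 8 identifiers matched by leaf marker symbols summed to 32841 to 45611 CPM. Among the 8 are further identifiers with the symbols PDK1 and Pep1, which had means of 45.1, 37.3 and 2.72 CPM in B73. Of 2 root genes, rtcs had no count in any library and rth3 had 10.2 to 16.6 CPM. P1-ww714/B73 replicate 1 stood apart in dividing-cell genes. Its 16 cell division genes summed to 304 CPM, against 456 and 483 CPM in the other heterozygote libraries and 419 to 474 CPM in P1-ww714 and B73, and its 12 histone genes summed to 431 CPM, against 737 to 993 CPM in the other 8 libraries. No gene of either list was at 0 in all libraries. The part of these genes in the values below was not tested, and the heterozygote values without that library are given with its comparisons.

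GLK17 (GRMZM2G006477) stood at 60.6, 63.9 and 72.0 CPM in B73, at 96.2, 88.5 and 100.4 CPM in P1-ww714/B73 and at 122, 126 and 118 CPM in P1-ww714. The 3 genotypes did not overlap, and the level stepped up with each allele. The step was 29.5 CPM for the first allele and 27.0 CPM for the second, beside standard deviations of 4.05 to 6.05 CPM between libraries of a genotype. GLK17 had the smallest spread of the 4 genes in P1-ww714, with a coefficient of variation of 3.32%.

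bZIP52 (GRMZM2G174284) showed the same ladder at 52.8, 61.3 and 59.0 CPM in B73, 87.7, 72.1 and 84.5 CPM in P1-ww714/B73 and 98.8, 110 and 102 CPM in P1-ww714. Its steps were 23.7 CPM and 22.2 CPM. The heterozygote library with the lowest level, replicate 2, was still above every B73 library.

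mez3 (GRMZM2G043484) was the least expressed of the 4 genes by count, with 251, 214 and 229 counts in B73, 361, 390 and 286 in P1-ww714/B73 and 656, 448 and 535 in P1-ww714. In CPM these are 19.5, 18.0 and 23.1 in B73, 32.5, 24.8 and 29.6 in P1-ww714/B73 and 41.8, 38.2 and 35.1 in P1-ww714. The genotypes did not overlap, although only 1.72 CPM divided the lowest heterozygote library from the highest B73 library. The steps were 8.79 and 9.39 CPM.

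ZBP14 (GRMZM2G018728) stood at 58.6, 66.9 and 65.4 CPM in B73, 74.7, 98.7 and 92.6 CPM in P1-ww714/B73 and 114, 130 and 125 CPM in P1-ww714. Its first step, 25.1 CPM, was the smaller and its second step, 34.1 CPM, the larger, the most uneven pair of the 4 genes. The low heterozygote value came from replicate 1, the library that was also low in cell division and histone genes. GLK17, bZIP52 and mez3 had their lowest heterozygote value in replicate 2 instead.

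**Figure D1:**
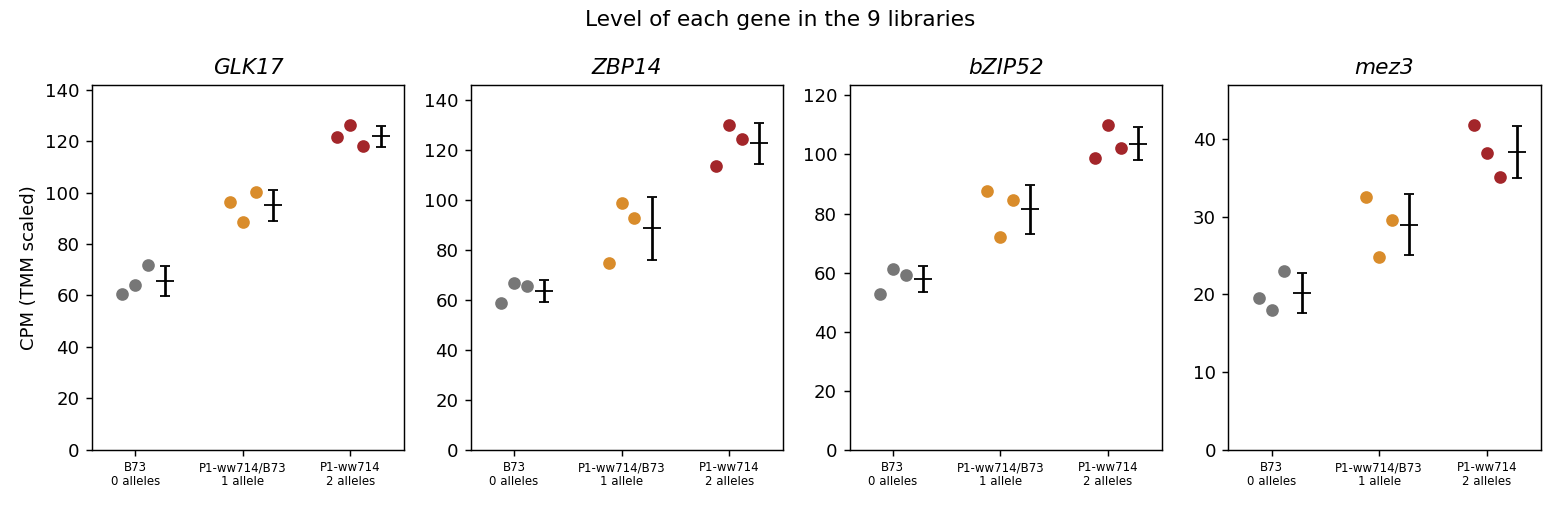
TMM-scaled CPM of GLK17, ZBP14, bZIP52 and mez3 (one panel each, y axis from 0) in B73, P1-ww714/B73 and P1-ww714, with 1 point per library in the order of replicates 1 to 3 and the mean ± SD (n = 3) as a bar to the right. In each panel the 3 genotypes form separate steps, from 60.6 to 126 CPM for GLK17 and from 18.0 to 41.8 CPM for mez3.

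All 4 genes thus had 3 groups of libraries in allele order with no overlap. The same order without overlap was found in 152 of the 22544 genes that passed the expression filter, 0.674%, and in 68 of the other 127 tested genes of the segment. All 4 members passed the filter. Choosing genes by their difference between P1-ww714 and B73 makes a separation of those genotypes likely in advance, so nothing is read from that count.

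In P1-ww714 against B73, mean levels were 122 ± 4.05 and 65.5 ± 5.87 CPM for GLK17, 123 ± 8.22 and 63.6 ± 4.42 CPM for ZBP14, 104 ± 5.62 and 57.7 ± 4.37 CPM for bZIP52, and 38.4 ± 3.35 and 20.2 ± 2.62 CPM for mez3 (SD, n = 3 each). A ratio of 4 copies to 2 gives an expected fold of 2. The log2 folds were 0.90 for GLK17 (95% interval 0.68 to 1.12), 0.95 for ZBP14 (0.68 to 1.22), 0.85 for bZIP52 (0.61 to 1.08) and 0.93 for mez3 (0.63 to 1.23). As folds these are 1.86, 1.93, 1.80 and 1.90. Each estimate lay below 2 and each interval held 2. Intervals above 0 follow from the way the genes were chosen, so nothing is read from the lower bounds. Of all tested genes 2.28% had an interval that held the ratio of the copies and not 0, against 87 of the other 127 segment genes, and 0.652% passed the edgeR test as higher. Since the members were picked from those that passed, their folds may lie further from 0 than those of genes not so picked.

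The heterozygote had 95.02 ± 6.05 CPM of GLK17, 88.7 ± 12.5 CPM of ZBP14, 81.4 ± 8.28 CPM of bZIP52 and 29.0 ± 3.91 CPM of mez3 (SD, n = 3). Its fold over B73, where 3 copies against 2 give 1.5, was 1.45 for GLK17 (95% interval 1.24 to 1.69), 1.39 for ZBP14 (1.16 to 1.68), 1.41 for bZIP52 (1.20 to 1.66) and 1.43 for mez3 (1.16 to 1.77). All 4 estimates lay below 1.5 with 1.5 inside the interval, and 2 lay outside every interval. Of all tested genes 1.16% had an interval that held log2 of 1.5 and not 0, and of the other segment genes 77 of 127 did. Without P1-ww714/B73 replicate 1 the log2 folds were 0.53 for GLK17, 0.59 for ZBP14, 0.44 for bZIP52 and 0.43 for mez3, beside 0.54, 0.48, 0.50 and 0.52 with it. This comparison uses the same B73 libraries as the one that chose the genes, so its folds are given as a description too.

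P1-ww714 against P1-ww714/B73, 4 copies against 3, has an expected fold of 1.33 and shares the P1-ww714 libraries with the comparison behind the choice. The folds were 1.28 for GLK17, 1.38 for ZBP14, 1.27 for bZIP52 and 1.33 for mez3. On the log2 scale they were 0.36 (95% interval 0.14 to 0.58), 0.47 (0.20 to 0.73), 0.35 (0.11 to 0.58) and 0.41 (0.11 to 0.70) in the same order of genes. GLK17 and bZIP52 were below the ratio of the copies, ZBP14 was above it and mez3 was within 0.01 of it on the log2 scale. Without P1-ww714/B73 replicate 1 the 4 log2 folds were 0.37, 0.36, 0.41 and 0.50 in that order. Of all tested genes 1.64% had an interval holding this ratio and not 0, against 76 of the other 127 segment genes.

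**Figure D2:**
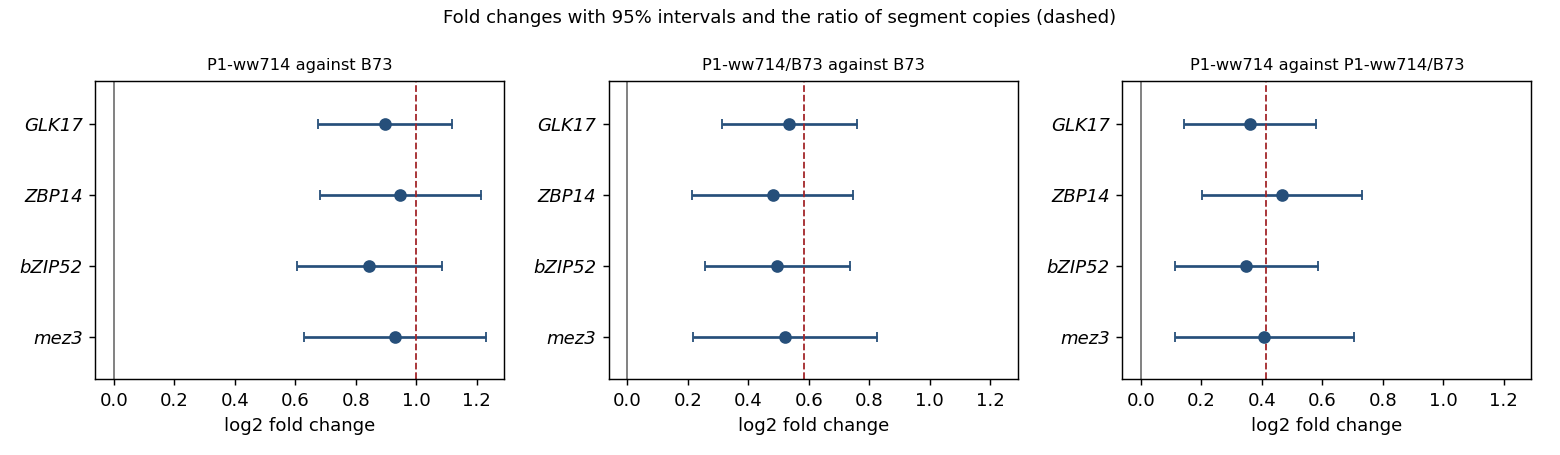
Log2 fold change (points) with 95% intervals (bars, edgeR fit of all 9 libraries) of the 4 genes for P1-ww714 over B73, P1-ww714/B73 over B73 and P1-ww714 over P1-ww714/B73. The dashed line is log2 of the ratio of segment copies (1, 0.58 and 0.42) and the solid line is 0; all 12 intervals hold the dashed line.

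Divided by the copies of the segment, the levels became nearly flat over the genotypes. GLK17 had 32.8 ± 2.93 CPM per copy in B73, 31.7 ± 2.02 in P1-ww714/B73 and 30.5 ± 1.01 in P1-ww714. bZIP52 had 28.9 ± 2.18 CPM per copy in B73, 27.1 ± 2.76 in P1-ww714/B73 and 25.9 ± 1.41 in P1-ww714. ZBP14 had 31.8 ± 2.21 CPM per copy in B73, 29.6 ± 4.17 in P1-ww714/B73 and 30.7 ± 2.06 in P1-ww714. mez3 had 10.1 ± 1.31 CPM per copy in B73, 9.66 ± 1.30 in P1-ww714/B73 and 9.59 ± 0.838 in P1-ww714 (SD, n = 3). The mean per copy was lower with each allele for GLK17, bZIP52 and mez3 and not for ZBP14, and for all 4 genes the libraries of neighbouring genotypes overlapped. These divisions rest on the copy numbers known as background and treat all copies alike; reads of single copies were not told apart.

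**Figure D3:**
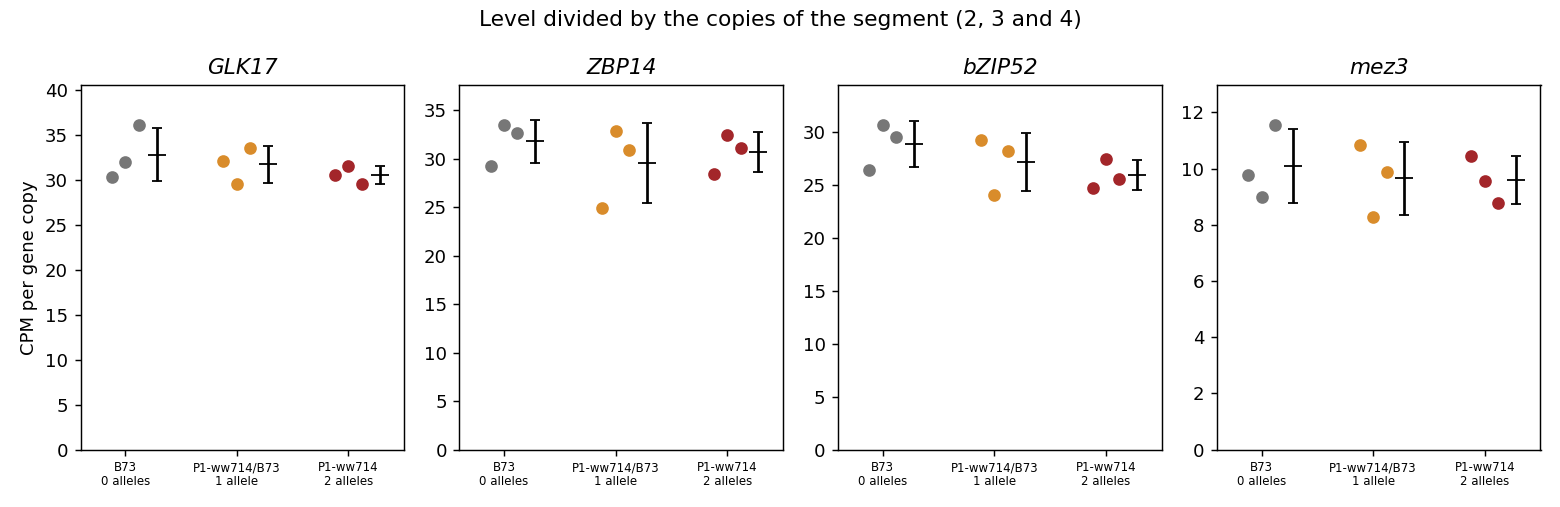
CPM divided by the number of segment copies (2 in B73, 3 in P1-ww714/B73, 4 in P1-ww714) for each gene and library, with mean ± SD (n = 3) to the right of the points and the y axis from 0. The genotypes overlap in every panel; GLK17 averaged 32.8, 31.7 and 30.5 CPM per copy at 0, 1 and 2 alleles.

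The heterozygote against the mean of its parents asks whether 1 allele gives the middle level, and is the measure that the choice of genes did not use. On the log2 scale its estimate is uncorrelated with the difference between P1-ww714 and B73 where both genotypes vary equally between libraries, which holds only roughly for GLK17, at coefficients of variation of 3.32% in P1-ww714 and 8.95% in B73. Copies that add on the linear scale put the heterozygote 0.08 above the log2 mean of the parents. The deviations were 0.09 for GLK17 (95% interval -0.10 to 0.28), 0.01 for ZBP14 (-0.22 to 0.24), 0.07 for bZIP52 (-0.13 to 0.28) and 0.06 for mez3 (-0.20 to 0.32). None passed the quasi-likelihood test of edgeR, whose adjusted p (Benjamini-Hochberg, over 22544 genes) was 1 for each gene here and in every alternative tried, and none had an unadjusted p under 0.05. Each interval held both 0 and 0.08, so exact log2 midpoints and additive copies could not be distinguished at this replication. In this comparison edgeR called 0 of all tested genes (235 at an unadjusted p under 0.05) and DESeq2 called 2. On the linear scale the heterozygote mean differed from the mean of the parents by 1.26 CPM for GLK17, -4.50 CPM for ZBP14, 0.77 CPM for bZIP52 and -0.30 CPM for mez3. The size of all 4 deviations depended on single libraries, and for ZBP14 and mez3 so did the sign. Without P1-ww714/B73 replicate 1 the log2 deviations were 0.08 for GLK17, 0.12 for ZBP14, 0.02 for bZIP52 and -0.04 for mez3. Over the 9 libraries left out in turn they ran from 0.05 (without P1-ww714/B73 replicate 3) to 0.14 (without replicate 2) for GLK17, from -0.08 to 0.12 for ZBP14, from 0.02 to 0.16 for bZIP52 and from -0.04 to 0.16 for mez3. For ZBP14, bZIP52 and mez3 the ends of the range were set by P1-ww714/B73 replicates 1 and 2.

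Along the segment of 131 tested genes, in the order of the reference table, mez3 is number 7, bZIP52 number 27, ZBP14 number 35 and GLK17 number 54. All 4 thus lie in the first part of that order. Which end lies near p1 was not determined here. They were ordinary members by size of change. Ranked from the highest fold in P1-ww714 against B73, ZBP14 was number 62 of 131, mez3 68, GLK17 73 and bZIP52 83, and in P1-ww714/B73 against B73 they ranked 71, 63, 59 and 70. The other 127 genes had a median log2 fold of 0.94 (quartiles 0.73 and 1.11) in P1-ww714 against B73 and of 0.51 (quartiles 0.32 and 0.67) in P1-ww714/B73 against B73. The bounds of the segment were set on the first of these comparisons, using every other gene along the order, bZIP52, ZBP14 and mez3 among them. Of the 8 nearest tested neighbours, 1 on each side of each member, the log2 folds in P1-ww714 against B73 ran from 0.25 to 1.39. The lowest was that of GRMZM2G165919, next to bZIP52, whose interval of -0.33 to 0.83 held 0 and not 1. On the sides of mez3, itself at 0.93, GRMZM2G092442 stood at 1.15 (0.39 to 1.90) and GRMZM5G824629 at 0.89 (0.65 to 1.13). The neighbours named here were picked with their values known.

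**Figure D4:**
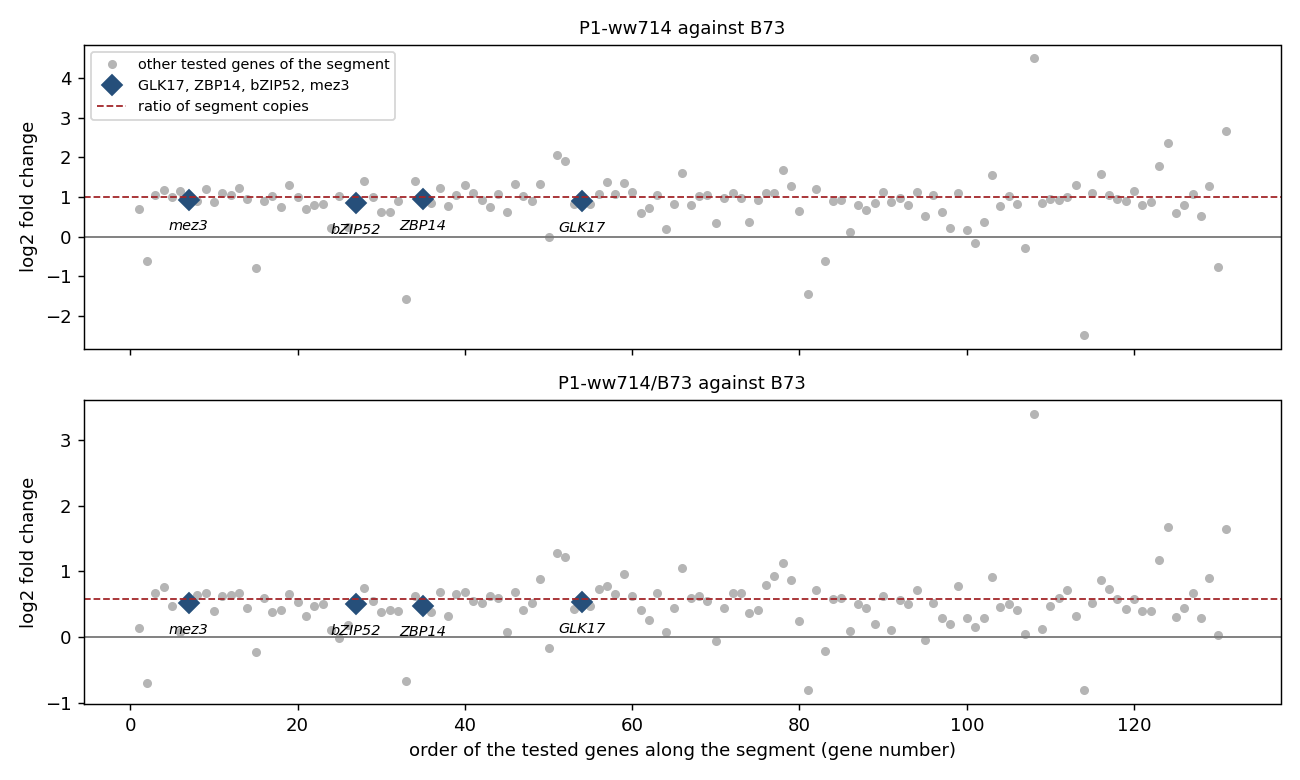
Log2 fold change of the 131 tested genes of the segment in their order along it (x axis, gene number), for P1-ww714 against B73 above and P1-ww714/B73 against B73 below; diamonds mark the 4 genes, grey points the other 127, and the dashed line is log2 of the ratio of copies. The 4 diamonds sit just under the dashed line, at 0.85 to 0.95 above and 0.48 to 0.54 below, inside the band of the other genes.

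Within the bounds of the segment, 156 identifiers are placed and 25 of them lay below the expression filter. By symbol, the transcription factors and chromatin genes among the 156 were GLK17, bZIP52, mez3 and EREB26 (GRMZM2G317160), of the AP2/EREBP family of DNA-binding proteins. EREB26 had 1 count over all 9 libraries, in B73 replicate 1, so an effect of copies on it was not detectable at this depth. Most placed identifiers have no name in the reference table, so further regulators may lie there.

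The Polycomb list held 10 genes by symbol, mez3 among them, and fie1, an imprinted endosperm gene, had no count in any library. Among all tested genes edgeR called 0.776% in P1-ww714 against B73, and 7.13% had an unadjusted p under 0.05. Outside the segment 8 Polycomb genes were tested. In this comparison edgeR and DESeq2 called 0 of these 8 genes, with 0 at an unadjusted p under 0.05. Their median log2 fold was -0.005, against -0.002 over all tested genes, and their range was -0.20 to 0.20. Of the partner subunits, fie2, a WD-repeat subunit, had 11.6 ± 1.66 CPM in P1-ww714 and 10.5 ± 1.75 CPM in B73, and vef101, a homologue of Su(z)12 of Drosophila, had 46.1 ± 4.12 CPM in P1-ww714 and 50.4 ± 2.07 CPM in B73 (SD, n = 3 each). The 4 nfc genes, which encode histone-binding WD-repeat proteins, had log2 folds of -0.02 (nfc101), 0.02 (nfc102), 0.20 (nfc103) and 0.13 (nfc104). In P1-ww714/B73 against B73 none of the 8 was called either, by edgeR, at an unadjusted p under 0.05 or by DESeq2. Their log2 folds were -0.17 to -0.003. Among all tested genes edgeR called 0.111% there, and 2.6% had an unadjusted p under 0.05.

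The other catalytic subunit genes, mez1 (chromosome 6) and mez2 (chromosome 9), were not called in either direction. mez1 had 46.6 ± 5.30 CPM in P1-ww714 and 53.5 ± 2.99 CPM in B73, a log2 fold of -0.20 (95% interval -0.47 to 0.08, edgeR adjusted p = 0.874). mez2 had 49.4 ± 4.86 CPM in P1-ww714 and 55.1 ± 5.79 CPM in B73, a log2 fold of -0.16 (-0.42 to 0.11, edgeR adjusted p = 0.942). Of the reads of all 3 genes, mez3 held 15.6 ± 0.777% in B73, 22.3 ± 1.67% in P1-ww714/B73 and 28.6 ± 0.896% in P1-ww714 (SD, n = 3). The share did not overlap between genotypes. Since mez3 was chosen as higher in P1-ww714 than in B73, nothing is read from that. The reads summed to 129 ± 11.3 CPM in B73, 130 ± 11.0 CPM in P1-ww714/B73 and 134 ± 13.2 CPM in P1-ww714. The sum thus differed between genotypes by less than the spread between libraries, with mez1 and mez2 lower on average in P1-ww714 than in B73. The shares are of reads, not of transcripts, since gene length was not taken into account. The sources used here do not say how reads that fit both mez3 and a similar gene were counted, so the split between mez2 and mez3 is uncertain.

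**Figure D5:**
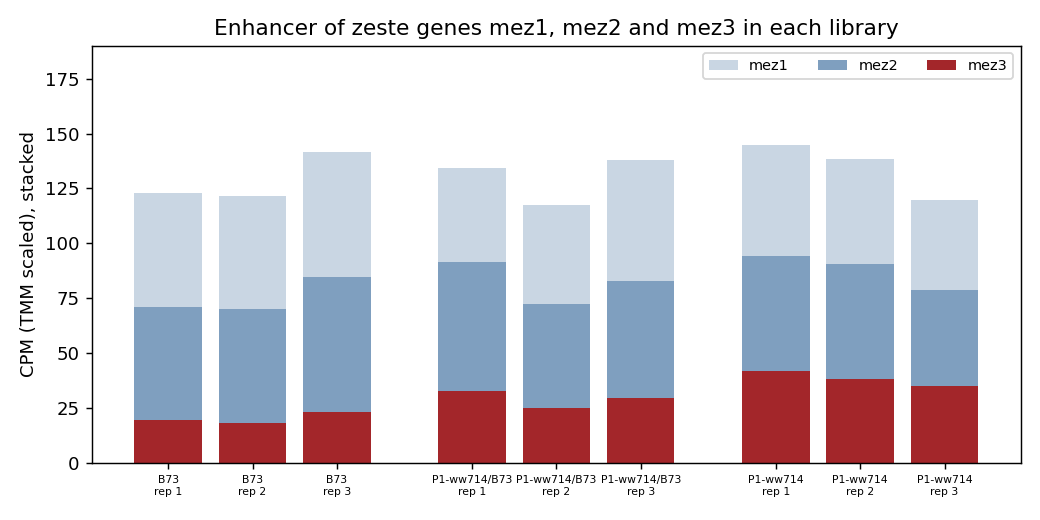
TMM-scaled CPM of mez3 (bottom), mez2 (middle) and mez1 (top) stacked for each of the 9 libraries, B73 left, P1-ww714/B73 in the middle and P1-ww714 right. The mez3 part is 35.1 to 41.8 CPM in P1-ww714, against 18.0 to 23.1 CPM in B73, while the stack heights of the genotypes overlap.

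Among identifiers listed by symbol for the families of GLK17 and bZIP52, edgeR called none outside the segment in P1-ww714 against B73. In that comparison 0.776% of all tested genes were called and 7.13% had an unadjusted p under 0.05. Family members without a matching symbol were not covered. Of 9 other GLK genes by symbol, 7 were tested, with a median log2 fold of -0.06 in P1-ww714 against B73 and a range of -0.43 to 0.54. glk1, a relative of golden2 that acts in chloroplast development, had 56.3 ± 14.0 CPM in P1-ww714 and 46.5 ± 4.79 CPM in B73 (SD, n = 3 each; log2 fold 0.28, edgeR adjusted p = 0.871). Of 38 other bZIP identifiers, 33 were tested, with a median of -0.003 and a range of -0.57 to 0.42. The nearest to a call was bZip112 (GRMZM2G103647), at a log2 fold of -0.45 and an edgeR adjusted p of 0.213, the 1 bZIP gene with an unadjusted p under 0.05. In the GLK list 0 genes had such a p, and DESeq2 called 0 genes in both lists. In P1-ww714/B73 against B73 the medians were 0.05 for GLK and -0.002 for bZIP genes, with 0 calls by edgeR, at an unadjusted p under 0.05 and by DESeq2. Of all tested genes edgeR called 0.111% in this comparison, and 2.6% had an unadjusted p under 0.05. No other gene of the table carries a ZBP symbol.

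Phosphate transporter genes were looked at because of the second name of GLK17, since PHR1 of Arabidopsis acts on genes of this class. Of 11 such identifiers by symbol, 7 had a count and 4 were tested, all with values above 0 in P1-ww714 against B73 and none called. The median log2 fold over all tested genes was -0.002, and no direction is read from 4 genes. pht13 had a log2 fold of 0.92 (95% interval 0.22 to 1.61, edgeR adjusted p = 0.458), at 1.53 ± 0.190 CPM in P1-ww714 and 0.80 ± 0.212 CPM in B73 (SD, n = 3 each). pht3 stood at 0.84 (0.13 to 1.55, edgeR adjusted p = 0.561), pht1 at 0.44 (-0.44 to 1.32) and pht7 at 0.38 (-0.76 to 1.52). The pht3 libraries had 6.69, 6.14 and 12.5 CPM in P1-ww714 and 3.35, 4.78 and 6.14 CPM in B73. pht7 was low, at 1.48 ± 0.188 CPM in P1-ww714 and 1.12 ± 0.583 CPM in B73. Unadjusted p-values were under 0.05 for pht13 and pht3, and 0 of the 4 were called by DESeq2. Over all tested genes edgeR called 0.776%, and 7.13% had an unadjusted p under 0.05. In P1-ww714/B73 against B73 the 4 values ran from 0.22 to 0.63, with 0 calls by edgeR, at an unadjusted p under 0.05 and by DESeq2. The shares over all tested genes there were 0.111% called by edgeR and 2.6% at an unadjusted p under 0.05. Both comparisons share the B73 libraries.

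The genes most like each member over the 9 libraries were all from the same segment. Among 2034 named genes with an average log2 CPM of at least 1, the highest Pearson r of log2 CPM were those of GLK17 with PHYB (0.98), bZIP52 (0.98) and mez3 (0.97), of bZIP52 with GLK17 (0.98), PHYB (0.97) and MSRB5.1 (0.96), of mez3 with GLK17 (0.97), bZIP52 (0.94) and PHYB (0.94), and of ZBP14 with nad1 (0.96), sbip2a (0.96) and CaM1 (0.95). All of these lie in the segment and so share its copy number. The segment has 19 named tested genes, few beside 2034, so nothing is read from their absence in the next lists. After the genotype means were subtracted, none of the 3 most similar genes of any member lay in the segment. They were SE1A (0.95), MMT1 (0.94) and GNAT25 (0.94) for GLK17, vdac1a (0.99), BTF3 (0.99) and rpl17 (0.99) for ZBP14, MYBR43 (0.96), Atg12 (0.95) and spds2 (0.93) for bZIP52, and homeobox3 (0.98), MKK3 (0.98) and Myrosinase (0.96) for mez3. These are descriptions over 9 libraries that share depth and preparation, picked as the highest of many.

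Between the 4 genes themselves, r over the 9 libraries was 0.83 to 0.98, which contains the shared step between genotypes. With the genotype means subtracted, GLK17 varied with mez3 (r = 0.73) and bZIP52 (r = 0.68), and bZIP52 with mez3 (r = 0.42). ZBP14 went apart from the other 3, at r = 0.05 with GLK17, -0.14 with bZIP52 and -0.59 with mez3. In P1-ww714/B73 replicates 1 and 2 ZBP14 had 74.7 and 98.7 CPM, and mez3 had 32.5 and 24.8 CPM. Replicate 1 is the library low in cell division and histone genes, and r without these libraries was not computed. The summed level of the 4 genes was 192 to 219 CPM in B73, 284 to 307 CPM in P1-ww714/B73 and 376 to 404 CPM in P1-ww714. In the same libraries the median of the other segment genes was 25.1 to 26.1 CPM in B73, 30.5 to 37.7 CPM in P1-ww714/B73 and 47.4 to 49.1 CPM in P1-ww714.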

How the data were processed

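The authors deposited a table of raw counts per gene identifier, 1 column per library. Per the submitters' processing notes TopHat and HTSeq were used; their versions and settings, the genome build and the strand mode are not stated there. All 9 columns were mapped by name. Names and gene order came from a RefSeq table of assembly Zm-B73-REFERENCE-NAM-5.0, which matched 18775 identifiers (47.3%), 2668 of them with a name. Coordinates are left out because the build behind the counts is unknown.

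Genes were kept by filterByExpr (minimum count 10), scaled by TMM and fitted over all 9 libraries with edgeR 4.0.16 in R 4.3.3, using the quasi-likelihood test and Benjamini-Hochberg adjustment at 0.05 over 22544 genes. Each standard error was the fitted log2 fold over the root of its F value, and 95% intervals were built from it. Correlations used log2 CPM with a prior count of 2. The segment was the stretch of tested chromosome 1 genes, read at even positions, that maximised the summed log2 fold (limited to -1 to 2) less 0.5 per gene. Replicates of a genotype differed by more than sampling noise, with chi-square values per gene of 6.35 to 18.5. The procedure was also run on simulated counts, and no result of that run is given here.

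The members and lists were chosen with earlier results of these data known, and the phosphate transporter list was added after the names in the files were seen. Lists were matched on symbols. Named genes were the members, the Polycomb list, segment regulators by symbol, family genes past the threshold, the 3 most similar genes by each measure, and neighbours; bZip112, glk1 and the named neighbours were picked after their values were seen. Alternatives were RLE size factors, TMM without the segment, a DESeq2 1.42.0 fit, omitting the expression filter, a replicate block, fitting only the groups compared, and leaving out each library.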

Additional observations from a re-analysis of the deposited data

How the results depend on the processing

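The folds of the 4 genes in the 3 comparisons between genotypes kept their direction and moved by less than 1 SD between libraries under every alternative tried. Without single libraries, the log2 folds in P1-ww714 against B73 ran from 0.84 to 0.97 for GLK17, 0.886 to 0.999 for ZBP14, 0.78 to 0.89 for bZIP52 and 0.85 to 1.03 for mez3. In P1-ww714/B73 against B73 they ran from 0.48 to 0.61, 0.39 to 0.59, 0.43 to 0.58 and 0.43 to 0.63 in the same order of genes. The deviation of ZBP14 from the mean of the parents reversed to -0.0012 with the replicate block and ran from -0.079 to 0.116 without single libraries; that of mez3 ran from -0.036 to 0.161, that of GLK17 from 0.047 to 0.137 and that of bZIP52 from 0.017 to 0.156. None of these passed under any alternative, and the cause of the sign changes was not tested. Same-numbered libraries deviated together with correlations of -0.12 to 0.50, the highest between P1-ww714/B73 and B73 replicate 3. These values do not settle whether the numbers pair the samples. A library was closest to one of its own number in 5 of 9 cases. With the replicate block, edgeR called 243 genes in P1-ww714 against B73 and 18 in P1-ww714/B73 against B73, and no call of the lists or of the deviations from the mean of the parents changed. DESeq2 called 311 genes in P1-ww714 against B73, where edgeR called 175, 73 in P1-ww714/B73 against B73, where edgeR called 25, and 27 between P1-ww714 and P1-ww714/B73, where edgeR called 0. The 25 calls were 6 to 20 without single libraries and 0 when only both groups were fitted. Lists outside the segment had 0 calls under every alternative for which they were run. Depth limits mez3 the most, at 214 to 656 counts per library.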
